A study of Homo sapiens with 6 samples.

Results

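Intermediate filament genes of neurons and of undifferentiated or mesenchymal cells were followed in HEK293, a human line derived from embryonic kidney. The genes are the neurofilament subunits NEFL, NEFM and NEFH, the neuronal filament genes INA and PRPH, and VIM and NES. They were chosen by symbol, as array rows whose only symbol in the platform annotation is one of these 7 names. A single row each was found for 6 of the 7, among 12448 genes with such a row; no row carried NEFM alone, so NEFM was not analysed here. A filter on low values (row mean over the 6 samples of at least 5.03 log2, the 25th percentile) left 5 of the 6, and NEFH, with a row mean of 4.26 log2, fell below it. The genes were proposed with the lower NEFL level of wtAPE1 cells already known, so the line differences against vector cells are given for them as a description, without a test.

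Affymetrix arrays covering whole transcripts were used to profile 3 HEK293 derivatives made with the pcDNA-FRT vector and tet-on expression. The wtAPE1 cells carry wild-type APE1, the ubAPE1 cells carry a fusion of ubiquitin to APE1, and the vector cells carry the empty vector. APE1 is an endonuclease that cuts DNA at abasic sites during base excision repair. Each line was sampled with doxycycline, which switches on the transgene, at 2 µg per ml for 16 h, and without it, and all were grown in puromycin at 1 µg per ml. Each of the 6 groups is 1 column that the authors averaged over 3 biological replicates, so the spread between replicates is not known and a difference between 2 columns has no test. The labels do not say whether a line is 1 clone.

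Intermediate filaments are rope-like polymers of coiled-coil proteins, and the subunits that a cell makes mark its kind. In mature neurons NEFL forms the core on which NEFM, NEFH and INA assemble into neurofilaments, which set the calibre of axons. PRPH (peripherin) is used by peripheral neurons, VIM (vimentin) by mesenchymal and many cultured cells, and NES (nestin) by neural progenitors. HEK293 cells are known to contain neurofilament subunits, INA and VIM beside the epithelial keratins KRT8 and KRT18.

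The upstream sequences of 4 of the 7 genes, INA, VIM, NES and PRPH, were taken from the RefSeq promoter table (GRCh38.p14). NEFL, NEFM and NEFH were left out of this step, which does not show that the promoter table lacks them. Nothing is said here of their upstream sequences. The letters before the start are shown as a description, and a link to the levels below was not tested. As deposited, VIM was lower in both APE1 derivatives, though only by little with doxycycline, while INA, NES and PRPH overlapped. Each run gives the 150 bases before the annotated start, 5′ to 3′ on the gene's strand. Capitals mark matches on either strand to the GC box GGGCGG, the TATA box TATAAA or CAGCACC, the left-hand part of the element bound by REST, a repressor of neuronal genes. INA lies at chr10:103276988-103277137 (plus strand), VIM at chr10:17228091-17228240 (plus strand), NES at chr1:156677408-156677557 (minus strand) and PRPH at chr12:49294997-49295146 (plus strand).
INA: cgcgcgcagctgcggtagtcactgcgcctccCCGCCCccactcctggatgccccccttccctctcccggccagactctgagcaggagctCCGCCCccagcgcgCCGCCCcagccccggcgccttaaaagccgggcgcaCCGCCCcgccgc
VIM: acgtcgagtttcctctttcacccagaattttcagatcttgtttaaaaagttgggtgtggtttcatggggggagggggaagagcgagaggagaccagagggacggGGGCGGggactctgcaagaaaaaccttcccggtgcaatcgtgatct
NES: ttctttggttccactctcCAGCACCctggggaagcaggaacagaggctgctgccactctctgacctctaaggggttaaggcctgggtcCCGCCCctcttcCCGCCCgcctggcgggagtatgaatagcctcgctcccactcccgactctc
PRPH: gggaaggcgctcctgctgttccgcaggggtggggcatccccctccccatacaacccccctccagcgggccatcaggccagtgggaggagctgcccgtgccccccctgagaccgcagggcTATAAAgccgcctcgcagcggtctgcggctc
The GC box, which SP1 family factors bind, matched 4 times in INA, 2 times in NES, 1 time in VIM and 0 times in PRPH, and 36.8% of 35116 promoters held it in this window. PRPH held the TATA box, from position -31 counted from the start, as did 6.7% of all promoters. NES held CAGCACC, from position -132, as did 3.7% of all promoters. The AP-1 site TGANTCA (4.2% of promoters) and the right-hand part of the REST element, GGACAG (10.4%), had no match in these 4 windows. The GC content was 77.3% in INA, 52.7% in VIM, 62.7% in NES and 71.3% in PRPH, against a median of 60% over all promoters. A match describes the letters, not a bound site.

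The columns were checked before the genes were compared. APEX1, which encodes APE1, had 10.67 log2 with and 9.50 log2 without doxycycline in wtAPE1 cells, 10.58 and 9.82 log2 in ubAPE1 cells, and 9.66 and 9.54 log2 in vector cells. Column medians lay between 6.07 and 6.28 log2. The median kept row was lower by 0.21 log2 in the wtAPE1 than in the vector column without doxycycline, so differences below are given as deposited or relative to the median row, as stated. Of 22 kidney and epithelial markers, 17 had a row and 14 of these passed the filter. Of 40 neuronal cytoskeleton genes and markers, 32 had a row and 22 passed. Of 15 adrenal medulla and sympathetic markers, 11 had a row and 4 passed, and of 18 fibroblast, endothelial and blood markers, 9 had a row and 3 passed. No detection call is given in the values, so a row above the filter is not thereby shown to be expressed, and levels of different rows were not compared.

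NEFL, the light neurofilament subunit, had the widest range of the 6 genes. Its level was 8.72 log2 with and 8.47 log2 without doxycycline in wtAPE1 cells, 8.62 and 8.66 log2 in ubAPE1 cells, and 9.37 and 9.46 log2 in vector cells. The 4 APE1-line columns lay within 0.24 log2 of each other and all below both vector columns, with a gap of 0.65 log2 between the groups. For scale, the median residual SD of a kept row about the additive fit of line and doxycycline was 0.15 log2, and neighbours in the order of levels within the APE1 lines were closer than that.

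Relative to the median row, NEFL was lower in wtAPE1 than in vector cells by 0.59 log2 units with doxycycline (a difference of -0.59) and by 0.77 without it (-0.77). In ubAPE1 cells the differences from vector cells were -0.64 with and -0.76 without doxycycline. As deposited, these 4 differences were -0.65, -0.99, -0.75 and -0.80 log2. Over both doxycycline states the difference was -0.67 ± 0.16 log2 (SE) in wtAPE1 cells and -0.70 ± 0.16 in ubAPE1 cells, or 1.59-fold and 1.62-fold lower.

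VIM, the mesenchymal filament gene, was also lowest in the APE1 lines. It had 9.70 log2 with and 9.49 log2 without doxycycline in wtAPE1 cells, 9.63 and 9.62 log2 in ubAPE1 cells, and 9.84 and 10.19 log2 in vector cells. All 4 APE1-line columns lay below both vector columns, but the vector column with doxycycline was only 0.14 log2 above the wtAPE1 column with doxycycline, within the residual SD above. Relative to the median row, VIM differed from vector cells by -0.07 with and -0.49 without doxycycline in wtAPE1 cells, and by -0.10 and -0.53 in ubAPE1 cells.

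INA, the neuronal filament gene that joins neurofilaments, overlapped between the lines. It had 8.06 log2 with and 7.75 log2 without doxycycline in wtAPE1 cells, 7.98 and 8.22 log2 in ubAPE1 cells, and 8.16 and 8.45 log2 in vector cells. The untreated ubAPE1 column lay above the treated vector column. Relative to the median row, the differences from vector cells were -0.03 with and -0.48 without doxycycline in wtAPE1 cells, and -0.07 and -0.19 in ubAPE1 cells. No gap between neighbours in the order of its 6 levels exceeded 0.23 log2.

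The APE1-line and vector levels of PRPH, NES and NEFH overlapped as deposited. PRPH, the filament gene of peripheral neurons, had 6.25 log2 with and 6.23 log2 without doxycycline in wtAPE1 cells, 6.15 and 5.89 log2 in ubAPE1 cells, and 6.13 and 6.30 log2 in vector cells. NES, the filament gene of neural progenitors, had 6.11 and 6.34 log2 in wtAPE1 cells, 6.09 and 6.05 log2 in ubAPE1 cells, and 6.09 and 6.03 log2 in vector cells, in the same order. The untreated wtAPE1 column was the highest for NES, by 0.23 log2, and the untreated ubAPE1 column was the lowest for PRPH, by 0.24 log2. Relative to the median row, NES differed from vector cells by 0.09 with and 0.53 without doxycycline in wtAPE1 cells. In ubAPE1 cells NES differed by 0.11 and 0.06. PRPH differed by 0.19 and 0.15 in wtAPE1 cells, and by 0.13 and -0.37 in ubAPE1 cells. NEFH, the heavy neurofilament subunit, had 4.40 and 4.39 log2 in wtAPE1 cells, 4.19 and 4.30 log2 in ubAPE1 cells, and 4.00 and 4.29 log2 in vector cells. On the same relative scale NEFH differed by 0.47 with and 0.32 without doxycycline in wtAPE1 cells, and by 0.29 and 0.05 in ubAPE1 cells. Its row lay below the filter, and its differences were left out of the counts.

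**Figure D1:**
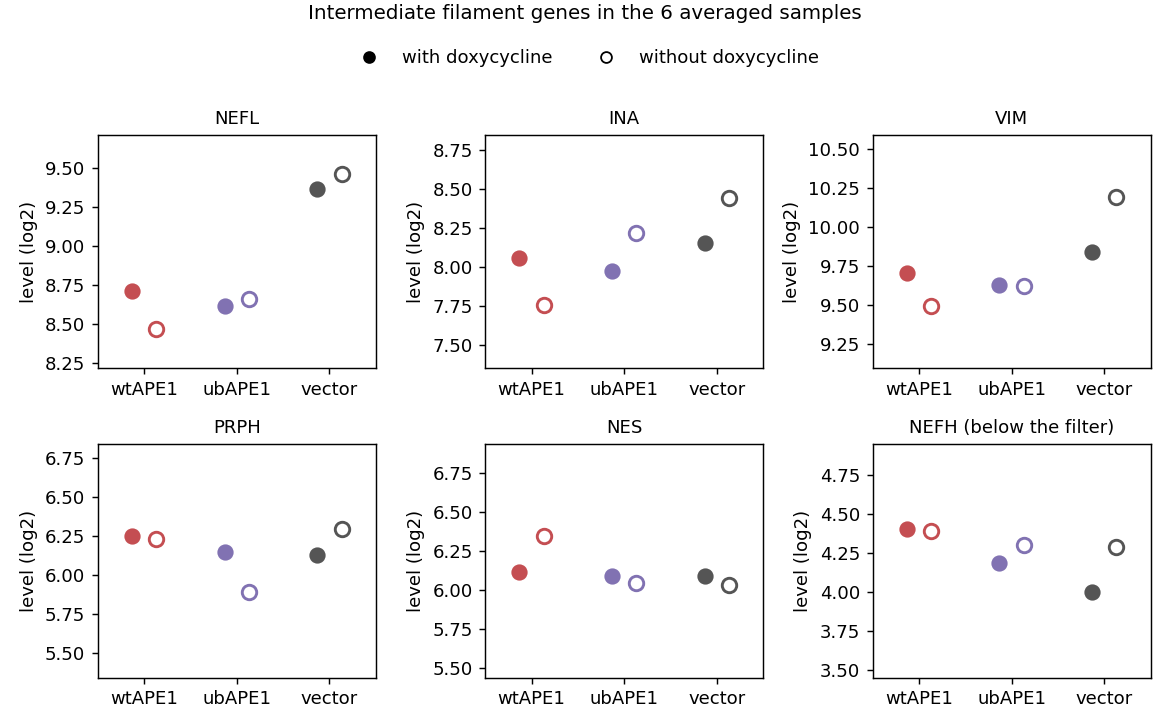
Levels (log2, vertical axes, each spanning 1.5 log2 units) of the 6 genes in the wtAPE1, ubAPE1 and vector lines, with (filled) and without (open) doxycycline; each point is 1 column averaged by the authors, so there are no error bars. For NEFL the APE1-line points lie between 8.47 and 8.72 and the vector points at 9.37 and 9.46, while the points of INA, PRPH, NES and NEFH overlap between lines.

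The counts below describe the 5 kept genes beside all rows; NEFL in this contrast was known when the genes were proposed, so they are no test of it and nothing is read from them. NEFL was at least 1.5-fold lower relative to the median row in all 4 comparisons of an APE1 line with vector cells, and no other of the 5 reached that size on this scale. As deposited, INA (-0.69) and VIM (-0.70) also reached it in untreated wtAPE1 cells, and with quantile normalization NEFL (-0.58) did not in treated wtAPE1 cells. Of all 11619 kept rows, 4.64% were that much lower in wtAPE1 cells with and 5.14% without doxycycline, and 8.78% and 2.93% in ubAPE1 cells. With the columns centred on their medians, all APE1-line levels lay below both vector levels for 2 of 5 genes (NEFL and VIM), as for 15.4% of all rows. In limma's additive fit 1 of 5 genes (NEFL) was called lower for wtAPE1 and 0 higher, against 2.01% of all rows lower (233) and 0.103% higher (12). For ubAPE1 0 of 5 were called, against 1.31% lower (152) and 0.0861% higher (10). After centring of the columns NEFL was called lower for both, against 4.03% of rows lower (468) and 1.62% higher (188) for wtAPE1, and 3.55% lower (413) and 1.08% higher (126) for ubAPE1. The count for wtAPE1 was 0 of 5 with a stricter row filter (50th percentile of row means) and with limma's intensity trend and robust options, used together.

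**Figure D2:**
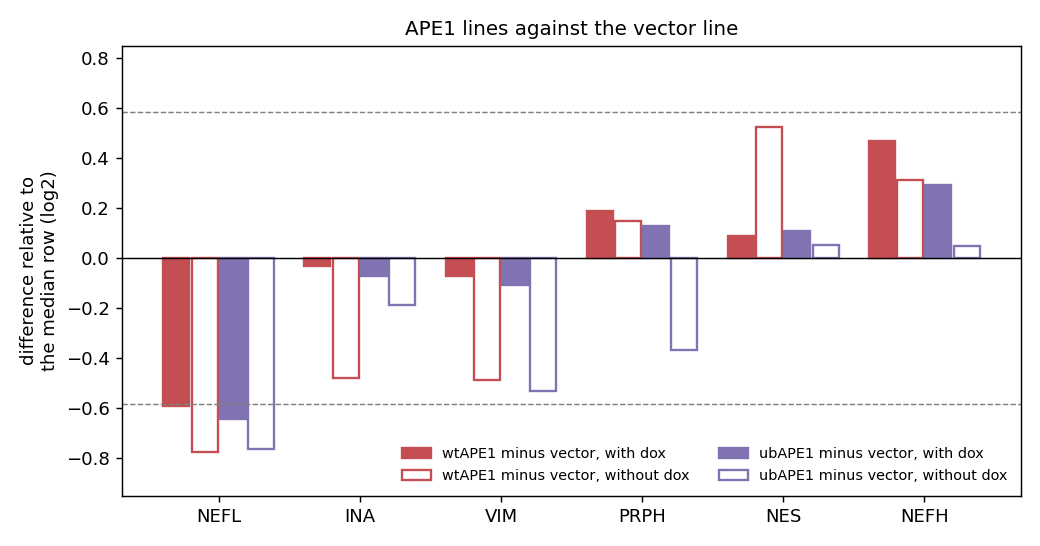
Difference of the wtAPE1 and ubAPE1 lines from vector cells for the 6 genes, with (filled bars) and without (open bars) doxycycline, in log2 units relative to the median kept row; each bar is 1 column minus 1 column, and the dashed lines mark 1.5-fold. The NEFL bars lie between -0.59 and -0.77, and VIM is at -0.49 and -0.53 without doxycycline but at -0.07 and -0.10 with it.

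The ubAPE1 and wtAPE1 lines were then compared over both doxycycline states. This contrast uses the same wtAPE1 columns as the NEFL difference known when the genes were proposed. Its NEFL values are therefore not independent of that choice. NEFL differed by 0.05 ± 0.16 log2 as deposited (ubAPE1 minus wtAPE1, SE, 95% interval -0.32 to 0.41), VIM by 0.03 ± 0.18 (-0.38 to 0.43) and INA by 0.19 ± 0.19 (-0.24 to 0.62). For NES the difference was -0.16 ± 0.16 (-0.52 to 0.20) and for PRPH -0.22 ± 0.16 (-0.60 to 0.16). None passed in limma (adjusted p = 0.9999 for each of the 5), 0.0% of all rows passed, and at an unadjusted p under 0.05 the counts were 0 of 5 genes and 47 of 11619 rows. The intervals reach 0.62 log2 for INA and -0.60 for PRPH, so they do not show that the lines are alike.

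Differences with doxycycline stayed below 1.5-fold for the 6 genes, and their signs varied between the lines. Relative to the median row, the NEFL response (with minus without doxycycline) was 0.17 log2 in wtAPE1, 0.09 in ubAPE1 and -0.05 in vector cells. VIM responded by 0.14, 0.13 and -0.30 and INA by 0.23, -0.12 and -0.25, in the same order of lines. NES gave -0.30, 0.17 and 0.10, and PRPH gave -0.05, 0.39 and -0.12. NEFH, below the filter, gave -0.06, 0.01 and -0.24. Vector cells had the lowest of the 3 responses for each of these genes except NES. The share of all rows with the vector response lowest was not counted, so nothing is read from this order. No kept gene of the 5 reached 1.5-fold in any line, against 0.93% of all rows in wtAPE1, 5.03% in ubAPE1 and 0.947% in vector cells. Under alternative processing the ubAPE1 response ranged from 0.19 to 0.39 for PRPH. For NEFL it ranged from -0.07 to 0.11, so its sign there is not settled.

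Beyond the vector response, the wtAPE1 response was higher by 0.48 log2 for INA, 0.45 for VIM and 0.22 for NEFL, was 0.07 for PRPH and -0.40 for NES. The ubAPE1 response beyond that of vector cells was 0.49 for PRPH, 0.42 for VIM, 0.11 for NEFL and INA and 0.04 for NES. Both sets of values subtract the same 2 vector columns. None of the 5 genes reached 1.5-fold relative to the median row, against 4.08% and 13.2% of all rows. As deposited, the INA value in wtAPE1 cells was 0.60 and passed it. With a trend of the response over genomic gene length removed, PRPH was at 0.27, VIM at 0.26 and NEFL at -0.06 beyond the vector response in ubAPE1 cells.

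**Figure D3:**
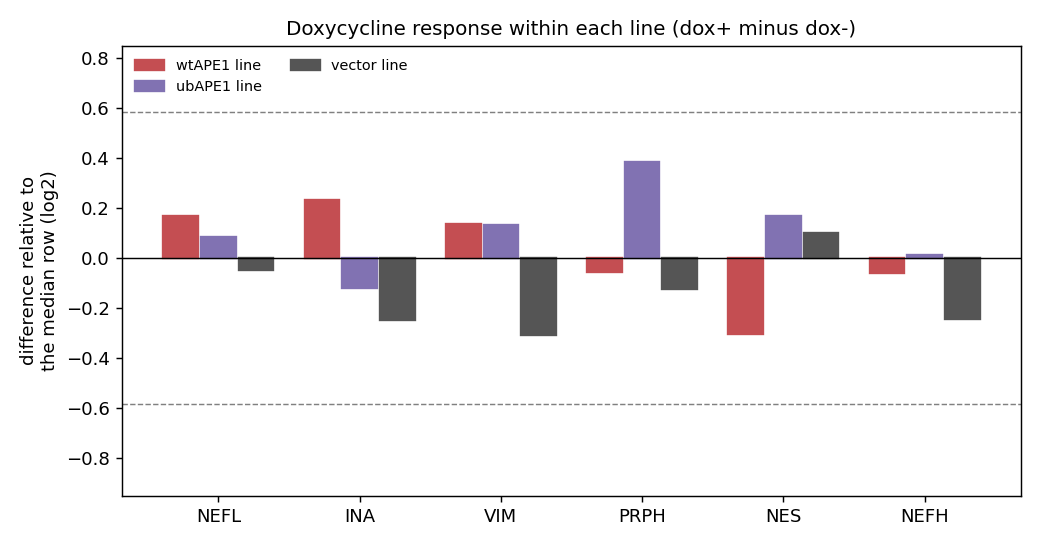
Doxycycline response (with minus without, log2 units relative to the median kept row) of the 6 genes in the wtAPE1, ubAPE1 and vector lines; each bar is 1 column minus 1 column, and the dashed lines mark 1.5-fold. No bar reaches a dashed line, and the longest are PRPH in ubAPE1 cells (0.39) and VIM in vector cells (-0.30).

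No shared change with doxycycline over the 3 derivatives was called for any of the 5 genes. As deposited it was 0.04 ± 0.13 log2 (SE) for NEFL (95% interval -0.26 to 0.34), -0.08 ± 0.15 for INA (-0.43 to 0.27) and -0.04 ± 0.14 for VIM (-0.38 to 0.29). It was -0.04 ± 0.13 for NES (-0.34 to 0.25) and 0.04 ± 0.13 for PRPH (-0.27 to 0.34). In limma none passed, 0.0% of all rows passed, and at an unadjusted p under 0.05 the counts were 0 of 5 genes and 194 of 11619 rows (1.67%). The lines stand in for replicates here, so the test measures evenness across them.

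Across the 6 median-centred columns, which share the lines and the doxycycline states, NEFL and VIM had a Pearson correlation of 0.83, INA and VIM of 0.71 and NEFL and INA of 0.61. NES ran opposite to INA (-0.93) and to NEFL (-0.61). NEFL was the one kept gene whose centred range reached 1.5-fold, so its nearest patterns were sought among 2090 rows of other genes with at least that range. The highest correlations were with GDE1 (0.999), a phosphodiesterase gene, and with WSCD1 (0.997), CTC1 (0.995), a telomere maintenance gene, RCAN2 (0.994), a calcineurin regulator, and TNC (0.994), the matrix protein tenascin C. GDE1 differed from vector cells by -0.48 with and -0.65 without doxycycline in wtAPE1 cells and by -0.56 and -0.63 in ubAPE1 cells. WSCD1, RCAN2 and TNC lay under the filter value in all APE1-line columns and were kept through the vector columns, so no size is given for them. Of the 2090 rows, 172 had a correlation of at least 0.95 with NEFL.

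Other filament genes of HEK293 cells did not form a single pattern in the differences of the APE1 lines from vector cells. Of 28 further cytoplasmic filament genes, 17 had a row and 9 passed the filter, of which 1 was lower and 0 higher in each APE1 line in limma, with medians of 0.08 (wtAPE1) and -0.02 (ubAPE1) relative to the median row. Over all rows, 2.01% were lower and 0.103% higher for wtAPE1, and 1.31% and 0.0861% for ubAPE1, and these shares stand beside each list count that follows. The lists were chosen with earlier results of these data known, so the p-values of their genes are given as a description. The gene called lower was KRT19, a keratin of simple epithelia, with 6.31 to 6.54 log2 in the APE1 lines and 7.33 and 7.46 log2 in vector cells. It was lower by 0.85 ± 0.16 log2 (-0.85, limma adjusted p = 0.0196) in wtAPE1 cells and by 0.89 ± 0.16 (-0.89, limma adjusted p = 0.0274) in ubAPE1 cells. KRT18, which pairs with KRT8 in simple epithelia, was at -0.43 and -0.41 and did not pass (limma adjusted p = 0.102 and 0.207). KRT8 was at 0.08 and -0.02. The glial filament gene GFAP and the muscle gene DES were at 0.27 and 0.20, and at 0.27 and 0.21, and neither passed. In the doxycycline response of ubAPE1 cells all 9 lay above the median row (median 0.35), against 2 in wtAPE1 and 5 in vector cells. In ubAPE1 minus wtAPE1 all 9 lay below it without doxycycline (median -0.31) and above it with doxycycline (0.13). The median row splits all kept rows evenly by construction. These comparisons share single columns and were not tested.

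None of the 8 kept genes of the nuclear lamina, whose lamins are filaments of the nucleus, passed in either line, with LMNA at -0.09 and -0.12 and LMNB2 at 0.24 and 0.27. Of 10 kept genes for filament linkers, chaperones and turnover, 1 was lower in each line (all rows 2.01% for wtAPE1, 1.31% for ubAPE1). This was PKP2, a plakophilin that helps tie filaments to desmosomes, with 5.37 to 5.59 log2 in the APE1 lines and 7.29 log2 in both vector columns. It differed from vector cells by -1.73 ± 0.15 in both (limma adjusted p = 0.00102 in wtAPE1 and 0.00121 in ubAPE1 cells). The desmosome genes DSP (-0.42 and -0.34) and JUP (-0.43 and -0.51) did not pass. HSPB1, a small heat shock protein that binds filaments, was at 0.87 and 0.64, and TRIM2, a ubiquitin ligase that targets NEFL in mice, at -0.53 and -0.41, and neither passed. None of the 14 kept genes for neurofilament kinases and phosphatase passed, with CDK5, which phosphorylates neurofilament tails, at 0.08 and 0.11. ROCK2, a further kinase of that list, was at -0.86 in the doxycycline response of ubAPE1 cells and at 0.13 and 0.07 in the wtAPE1 and vector lines.

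The wider neuronal cytoskeleton differed between the lines in both directions. Of 22 kept genes, 5 were lower and 1 higher in wtAPE1 cells in limma (all rows 2.01% and 0.103%), and 4 lower and 1 higher in ubAPE1 cells (1.31% and 0.0861%), with medians of -0.29 and -0.24 relative to the median row. Lower in both lines were KIF1A, a kinesin of synaptic vesicle transport (-1.78 ± 0.15 in wtAPE1 and -1.96 ± 0.15 in ubAPE1 cells), MAP1B, a microtubule protein of growing axons (-0.94 ± 0.16 and -1.02 ± 0.16), BASP1, a growth cone protein (-0.73 ± 0.15 and -0.88 ± 0.15), and the neuronal enolase ENO2, which lay partly under the filter value in the APE1 lines. ANK2, a membrane anchor of the axon, passed in wtAPE1 cells (-0.68) and was at -0.68 in ubAPE1 cells without passing (limma adjusted p = 0.0426 and 0.0792). KIF1A had 5.89 to 6.07 log2 in the APE1 lines and 7.92 and 8.01 log2 in vector cells. CRMP1, a collapsin response mediator of axon guidance, was the member that was higher, with 7.07 to 7.20 log2 in the APE1 lines and 6.01 and 6.10 log2 in vector cells (1.18 ± 0.15 and 1.15 ± 0.15, limma adjusted p = 0.0122 and 0.0115). Its relative DPYSL4 was at 0.76 and 0.68 and did not pass. UCHL1, an abundant neuronal deubiquitinase, was at -0.47 and -0.52, and the adhesion gene NCAM1 at -0.52 and -0.50, and neither passed.

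**Figure D4:**
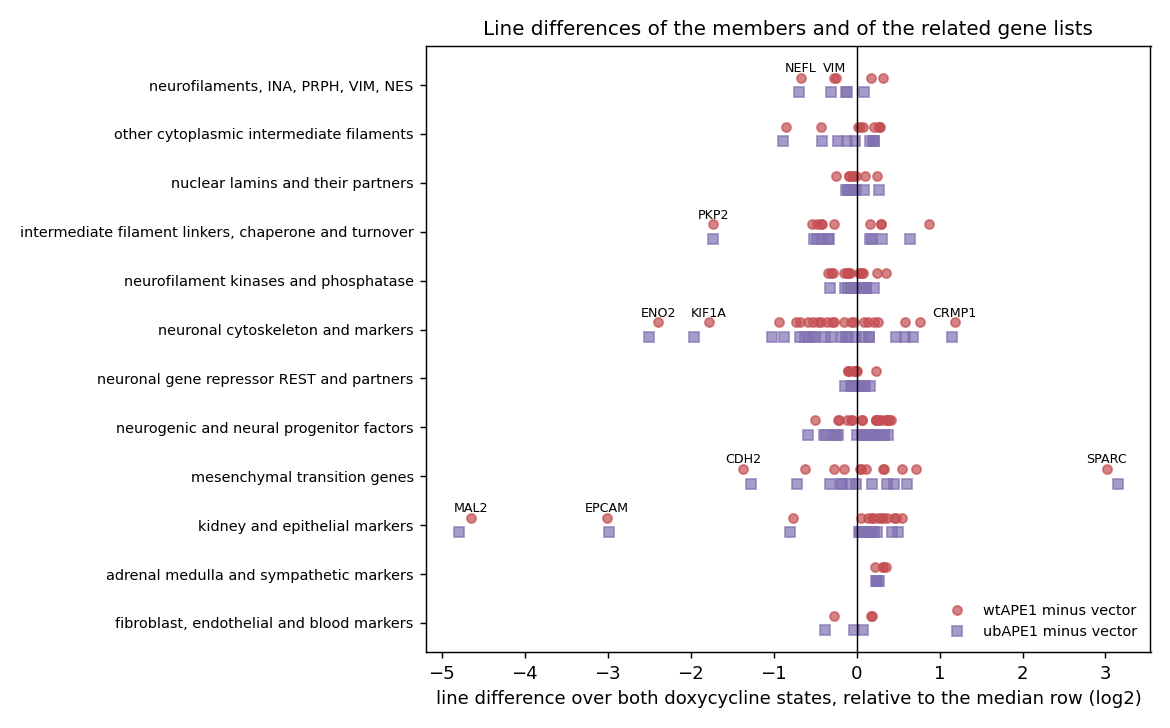
Difference of the wtAPE1 (circles) and ubAPE1 (squares) lines from vector cells over both doxycycline states, in log2 units relative to the median kept row, for the kept genes of each list; each point is 1 gene from the additive fit. NEFL lies at -0.67 and -0.70, inside the spread of the neuronal list, which reaches from ENO2 (-2.39 and -2.51) to CRMP1 (1.18 and 1.15). ENO2 lay partly under the filter value in the APE1 lines, and the next lowest gene of that list is KIF1A (-1.78 and -1.96). MAL2 and TGFB2 lay under the filter value in all APE1-line columns and SPARC in both vector columns. EPCAM and LRP2 lay under it in some APE1-line columns. The positions of these points are not read as sizes.

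Few genes of these lists moved with doxycycline by 1.5-fold or more. SYP, a synaptic vesicle protein gene, had 4.92 log2 with and 5.83 log2 without doxycycline in wtAPE1 cells (-0.99), and was at -0.45 in ubAPE1 and 0.10 in vector cells. NPHS1, a podocyte gene, was at 0.92, 0.98 and 0.35 in the same order, and CLDN3, a tight junction gene, at 0.02, 0.69 and 0.31. These are differences between single columns, without a test. The treated SYP column of wtAPE1 cells lay under the filter value. So did the untreated NPHS1 columns of wtAPE1 (4.75 log2) and ubAPE1 cells (4.99 log2).

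REST and its partners did not pass in either line (0 of 10 kept genes), with medians of -0.01 and 0.02. REST had 7.33 log2 with and 7.19 log2 without doxycycline in wtAPE1 cells, 6.92 and 7.48 log2 in ubAPE1 cells, and 7.45 and 7.38 log2 in vector cells. Of 19 kept neurogenic and neural progenitor factors, 0 passed, with medians of 0.23 and 0.12; ID2, an inhibitor of neurogenic factors, had the largest difference, at -0.50 and -0.58. Of 12 kept genes of mesenchymal transition, in which VIM is a usual marker, 1 was higher (all rows 0.103% for wtAPE1, 0.0861% for ubAPE1) and 1 lower (2.01% and 1.31%) in each line. CDH2, the cadherin of neural and mesenchymal cells, was lower (-1.37 ± 0.19 and -1.27 ± 0.19, limma adjusted p = 0.00666 and 0.0129), and the matrix gene SPARC was higher, with both vector columns under the filter value. The collagen gene COL3A1 (0.71 and 0.60) and the growth factor gene TGFB2 did not pass. TGFB2 lay under the filter value in all APE1-line columns (4.67 to 4.99 log2, against 5.75 and 5.50 log2 in vector cells), so no size is given for it. The epithelial list held 3 lower genes in wtAPE1 cells (EPCAM, MAL2 and LRP2) and 2 in ubAPE1 cells (EPCAM and MAL2) among 14 kept (all rows 2.01% and 1.31%). MAL2 lay under the filter value in all APE1-line columns (the lowest at 4.01 log2, against 8.72 and 9.09 log2 in vector cells), and EPCAM (4.90 to 5.30, against 8.03 and 8.30) and LRP2 (4.84 to 5.11, against 5.71 or more) in some of them. A gene kept through its vector columns had to differ, so these counts support nothing. The adrenal and the fibroblast, endothelial and blood lists had 0 called members among 4 and 3 kept. The part of these epithelial and mesenchymal marker differences in the NEFL difference was not tested. In samples of many cells, fewer cells that make a transcript and less of it per cell cannot be told apart.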

How the data were processed

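RNA of the 6 groups was hybridised to Affymetrix arrays. The deposited values are log2 levels per transcript cluster, 1 column a group, averaged by the authors over 3 biological replicates per the labels. That the scale is log2 follows from their range. Their background correction, summarisation and normalization were steps not given in the sources used here. Per the submitters' processing notes the build was hg 18; no coordinates of it are printed. The array rows were named through the platform annotation: of 15492 rows, 12616 had 1 symbol, 2031 several and 845 none, and names were checked against GRCh38.p14 by gene ID (12602 found). Rows with a mean at or above the 25th percentile were kept (11619). The number of averaged columns limits the precision, and no depth applies to arrays.

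Tests used limma 3.58.1 in R 4.3.3 (lmFit, eBayes) with line and doxycycline as additive terms (2 residual degrees of freedom, 6.28 prior), a threshold of 0.05 on p-values adjusted by Benjamini-Hochberg across every kept row. Lines or doxycycline states stand in for replicates, so p-values measure evenness across them. Each p-value tests the as-deposited difference, even beside a size relative to the median row. Single columns were compared by size (1.5-fold relative to the median kept row). Named genes are the 7 genes, APEX1, the genes of each list past 1.5-fold in both doxycycline states, or in a doxycycline response (at most 4 per list and comparison), or else its 1 or 2 largest, and the 5 nearest patterns of a gene whose range reached 1.5-fold. Of lists with nothing past 1.5-fold, the doxycycline responses and some largest line differences are not named, and further genes (among them BASP1, ANK2 and LRP2, which passed the test) were chosen after their values were seen. The genes, lists and tests were chosen with earlier results of these data known. Alternatives were other row filters, quantile normalization, centring, a floor, an intensity trend with robust moderation, 1 row per gene, no line term, leaving out each line, a 2-fold rule and removal of a gene length trend.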

Additional observations from a re-analysis of the deposited data

Results flagged for a closer look

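For the kept genes the doxycycline response had opposite signs in 2 lines, both as deposited and relative to the median row. The share of all rows with such opposite signs was not counted, so this is not shown to be particular to these genes. Each is a difference between single columns and was not tested. Each response was taken relative to its own median row, so values differ slightly from those relative to the median of the differences. Between the wtAPE1 and vector lines the responses differed by 0.21 log2 for NEFL, 0.48 for INA and 0.44 for VIM, each above 0 in wtAPE1 and below 0 in vector cells, and by -0.41 for NES, the other way. Between the ubAPE1 and vector lines they differed by 0.44 for VIM and 0.51 for PRPH, each above 0 in ubAPE1 cells. Between the ubAPE1 and wtAPE1 lines they differed by -0.35 for INA and 0.47 for NES. For VIM in ubAPE1 cells the response was 0.0045 as deposited and -0.0028 with the length trend removed, so its sign there is not settled.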

How the results depend on the processing

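No paired analysis was possible because each group is 1 averaged column, so no replicate numbers pair samples. The line term of the fit does pair the doxycycline states by line, and without it 0 rows passed for the common doxycycline effect, as with it. Of the 8 alternatives of each line contrast, only quantile normalization and centring could change the size of the NEFL difference. With these it was -0.63 and -0.65 log2 for wtAPE1, and -0.68 and -0.67 for ubAPE1. The other alternatives left it at -0.82 and -0.78 by construction, so they say nothing about its size. As a description only, the kept genes past the limma threshold numbered 0 in place of 1 for wtAPE1 with the 50th percentile filter and with the intensity trend and robust options together, and 1 in place of 0 for ubAPE1 with quantile normalization, with centring and without wtAPE1 cells. The cause was not tested. Rows called, 245 for wtAPE1 minus vector, were 112 with the stricter filter, 558 with quantile normalization, 656 with centring and 973 without ubAPE1 cells; for ubAPE1 minus vector, 162 became 62, 434, 539 and, without wtAPE1 cells, 327. Centring gave 9 rows for the common doxycycline effect and 1 for ubAPE1 minus wtAPE1, where 0 passed otherwise. By size, as deposited, 3 of the kept genes passed 1.5-fold in the untreated wtAPE1 line (NEFL, VIM and INA) in place of 1, and 1 (INA) in the wtAPE1 response beyond the vector response in place of 0. With the length trend removed 2 passed in the untreated wtAPE1 line. With quantile normalization 0 passed in the treated wtAPE1 line, where NEFL was just past the limit, and with the 2-fold rule 0 passed in each of the 4 comparisons with vector cells. Of 442 values of single genes under alternatives, 417 kept their side of the threshold or moved by less than the median residual SD (26 of them, none called, changed sign), 20 moved by more than it (7 with a change of sign), 3 passed and 2 no longer passed the threshold. Several of the settings cannot change the size of a difference, so the counts do not measure how firm it is. With 1 averaged column a group, the spread between replicates is unknown.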
